A study of Mus musculus with 3 samples.

Results

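The sequences described here are the small RNAs of mouse testis that match an annotated pseudogene over their whole length, letter for letter. The deposited list held 2219118 distinct small RNA sequences, each with 1 chromosome and 1 range on the mouse genome build mm9, and 19184 of them met the rule. A sequence was taken when it matched a GENCODE vM21 transcript of a pseudogene on its listed chromosome, on either strand, and did not also match a protein-coding transcript of that chromosome in the sense direction, which left out 914 of the 20098 sequences that matched a pseudogene. The sense set, with the letters of the pseudogene transcript itself, held 13572 sequences, or 0.612% of the list (exact Clopper-Pearson 95% interval 0.601 to 0.622). The antisense set, complementary to the transcript, held 5612 sequences, or 0.253% (0.246 to 0.260). No sequence matched one pseudogene in sense and another in antisense, and the pseudogene sets are called sense and antisense throughout.

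The study sequenced small RNAs bound to PIWI pathway proteins in testes of C57BL/6 mice, cut from a gel between 28 and 30 nt. The 3 libraries were small RNAs recovered with Tdrd1 from adult testes, small RNAs recovered with the PIWI protein Mili from adult wild-type testes, and small RNAs recovered with Mili from testes of mice without Tdrd1, aged 15 days after birth. Each group had 1 library, and the library from the mutant came from younger animals than both others, so genotype and age cannot be told apart. The list had 3 columns (sequence, chromosome and range), with no read count, no strand and no column for the library, so the comparisons of Mili between wild-type and mutant testes and of Tdrd1 with Mili could not be computed, and the depth of each library is unknown. All values below count distinct sequences once. Their intervals cover counting error only, and sequences cut from the same transcript are not independent of each other.

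Pseudogenes are copies of genes that have lost the ability to make the original protein. Processed pseudogenes arose when a spliced mRNA was copied back into the genome, so they lack the introns of the parent gene and carry its exons joined together. PIWI-interacting RNAs (piRNAs) guide PIWI proteins to complementary transcripts, usually begin with U, and in the fetal and newborn testis take part in an exchange of cuts in which 2 piRNAs from opposite strands overlap by 10 nt at their 5′ ends and the second has A at position 10. An antisense transcript of a pseudogene can make small RNAs complementary to the mRNA of its parent gene.

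The sequences that follow show the kinds of match that the results turn on. They are written 5′ to 3′ with T for U, as in the list. In the first set, from the 3 sense and 3 antisense pseudogenes chosen among the richest of each strand, capitals mark positions 1 and 10, where piRNAs often have U and A. Their mm9 places are chr10:86372890-86372918 on the + strand for Gm16270, chr13:21596270-21596299 on the - strand for Zfp389, chr11:58775682-58775711 on the + strand for Gm12260, chr6:128135877-128135906 on the - strand for Gm18609, chr10:85228182-85228211 on the + strand for Gm47366, and chr6:128397409-128397438 on the + strand for Gm18009.
Gm16270 sense: TgtgagtagCcaggaagagctgatgaccc
Zfp389 sense: AagatactcTaaccttaccaaacaccagaa
Gm12260 sense: AgacatccaGttggctcggcgcatccgcgg
Gm18609 antisense: TgagatggcTggtaaatattttgaggtgaa
Gm47366 antisense: TaggatgagCtctggtgacaagaagcactt
Gm18009 antisense: TgcaataatCagacccagcatttcgtcggg
Each was the sequence whose 5′ end was shared by the most listed sequences of its pseudogene. Of the 6, 4 began with U and none had A at position 10. This depends on which were printed. The sequence chosen in the same way for Zfp862-ps, not printed here, began with U and had A at position 10. Those of Gm13815 and Gm43959, also not printed, began with U and had G and C there.

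The second set shows sense sequences that are identical both to a pseudogene and to the spliced mRNA of a gene on another chromosome, with capitals for the bases that come from the downstream exon of that mRNA. They lie at chr6:67155774-67155798 (+) in Gm8566, chr7:52580687-52580711 (+) in Rpl14-ps1, chr4:91472271-91472296 (-) in Gm12669 and chr2:68669123-68669151 (+) in Gm13612 on mm9. They join exon 2 to exon 3 of Sod1, exon 5 to exon 6 of Rpl14, exon 10 to exon 11 of Glrx3 and exon 1 to exon 2 of Pfdn6.
Gm8566 and Sod1: tacacaagGCTGTACCAGTGCAGGA
Rpl14-ps1 and Rpl14: tgAGGAACAGAATAATCAAGACTGA
Gm12669 and Glrx3: ttgtcaagGAACTGAAAGACAACGGT
Gm13612 and Pfdn6: aacagctgcagaaggACTTGAGTAAATCT
The Rpl14 sequence has 2 nt in the upstream exon and 23 in the downstream exon, while the Pfdn6 sequence has 15 and 14.

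The third set shows antisense sequences beside the coding mRNA site that they can pair with, both read 5′ to 3′. Capitals mark bases that do not form an A-U or G-C pair. A G facing a U was counted as a mismatch here and throughout. The small RNAs lie on mm9 at chr4:123515699-123515727 (-) in Gm12904, chr9:67595987-67596010 (+) in Gm7787, chr17:66577152-66577181 (+) in CT025671.2 and chr8:28406735-28406760 (-) in Gm9731.
Gm12904 antisense: tctttaagcagagattgTatGgggtctgt
Ago2 mRNA site: acagacccTatCcaatctctgcttaaaga
Gm7787 antisense: tttcAagccgtcttcttCTgcata
Spin1 mRNA site: tatgcCAaagaagacggctCgaaa
CT025671.2 antisense: tgagaaaaactgcAgccctcgtcacatact
Pphln1 mRNA site: agtatgtgacgagggcCgcagtttttctca
Gm9731 antisense: aaCTgaagacatggcgaccaggtaga
Ccnq mRNA site: tctacctggtcgccatgtcttcCAtt
These pairs have 2 mismatches for Ago2, 3 for Spin1, 1 for Pphln1 and 2 for Ccnq.

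The first question was how many pseudogenes the small RNAs came from and on which strand. Of 13523 annotated pseudogenes, 2144 had at least 1 matching sequence. A sense sequence was found for 1923 of them and an antisense sequence for 366, and 145 had both. Most held few: 766 of the 1923 had 1 sense sequence and 195 of the 366 had 1 antisense sequence. In the other direction, 148 pseudogenes had 20 or more sense sequences and 32 had 20 or more antisense sequences, and 0 had 20 or more on both strands. The antisense set was the more concentrated one, with 61.0% of its sequences in its 10 richest pseudogenes and 22.6% in Gm18609 alone. Of these 10, Gm47365 overlaps Gm47366, and sequences matching both were counted once in the share. In the sense set the 10 richest held 14.2% and the richest, Gm16270, held 3.53%.

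**Figure D1:**
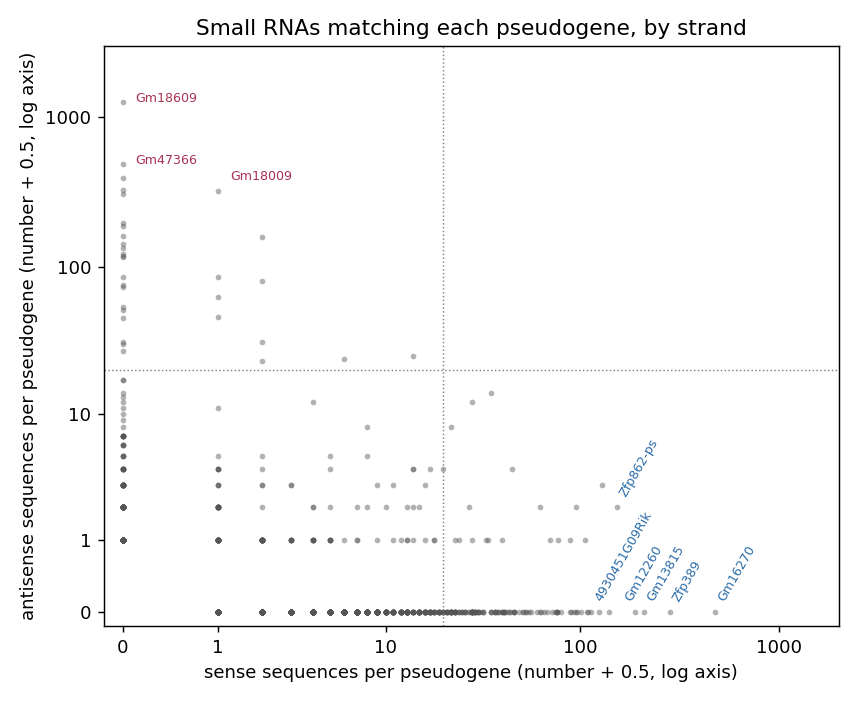
Each point is 1 of the 2144 pseudogenes with a matching sequence, placed by its number of sense (x) and antisense (y) sequences, each plus 0.5 on a log axis; dotted lines mark 20. The points lie along both axes and the upper right field is empty, so that no pseudogene held 20 or more sequences on both strands.

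The kinds of pseudogene differed in how often they were hit. Processed pseudogenes were the largest class, with 9940 annotated, and 1599 of them (16.1%) had a sense sequence, while 270 (2.72%) had an antisense one. They held 9415 sense sequences and 5187 of the antisense sequences (92.4%). Transcribed processed pseudogenes, which the annotation marks as having transcript evidence of their own, had a sense sequence in 124 of 296 cases (41.9%). Transcribed unitary pseudogenes, single genes that lost their function rather than copies, had one in 13 of 17 cases. Unprocessed pseudogenes, which arose by duplication of the gene with its introns, had one in 97 of 2642 cases (3.67%). Without the sequences identical to an mRNA of another chromosome, the shares were 9.26% of processed, 33.1% of transcribed processed and 3.22% of unprocessed pseudogenes. Of the pseudogenes of immunoglobulin and T cell receptor segments, 1 T cell receptor V segment held sense sequences, 2 in number. On the Y chromosome, 810 annotated pseudogenes held 3 sense sequences and no antisense sequence, where the whole list had 391 sequences. The X chromosome held 8.73% of the sense sequences and 8.27% of the pseudogenes, against 1.85% of the list, and 472 of its 1185 sense sequences were identical to an mRNA of another chromosome.

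Parent genes were taken as the coding gene whose transcript aligned to the pseudogene with at least 70% identity over at least 50% of its length. Ribosomal protein genes, which have many processed copies in mammals, were the parents of 1810 pseudogenes, of which 261 (14.4%) had a sense sequence, against 14.2% of all pseudogenes. A sense sequence not identical to an mRNA of another chromosome, a set described further on, was held by 235 of them (13.0%), against 8.88% of all pseudogenes. Copies of translation factor genes had one in 38 of 140 (27.1%), and copies of ubiquitin and proteasome genes in 36 of 149 (24.2%). Counting only sequences not identical to such an mRNA, these were 21 of 140 (15%) and 16 of 149 (10.7%). Copies of glycolytic enzyme genes stood below the overall share, with 8 of 105 (7.62%), as did copies of histone and HMG protein genes, with 26 of 344 (7.56%). Olfactory and vomeronasal receptor pseudogenes, copies of genes of the nose, had a sense sequence in 7 of 602 cases (1.16%). In the antisense direction 2.71% of all pseudogenes had a sequence, and of the ribosomal protein copies 43 of 1810 (2.38%). These counts describe the lists and no test was made of them.

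A large part of the sense set could not be assigned to the pseudogene by its letters. Of the 13572 sense sequences, 5891 were identical over their whole length to the mRNA of a coding gene on another chromosome, so that pseudogene and mRNA cannot be told apart as their source. Of these 5891, 5831 crossed an exon junction of that mRNA, which is 99.0% (98.7 to 99.2). By contrast, of the 429920 windows of 27 nt that the pseudogenes with a sense sequence share with such mRNAs, 17.3% crossed a junction. A window that crosses none also occurs uncut in an exon of the coding gene, and how the authors placed sequences with several matches is unknown, so this share is a description and not an expected value. Sense sequences that differed from an mRNA by 1 base crossed a junction in 332 of 1725 cases (19.2%, interval 17.4 to 21.2), and those with 2 or 3 mismatches in 13.2% and 11.7%. Across the list, 0.522% of the 1159330 sequences sense to a coding exon of their own chromosome crossed a junction of every transcript they matched. Each listed range was as long as its sequence, so no sequence could be listed across an intron of its own gene. The form of the list thus keeps this share low, and it is no measure to set against the 99.0%. The remaining 60 identical sequences crossed none.

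**Figure D2:**
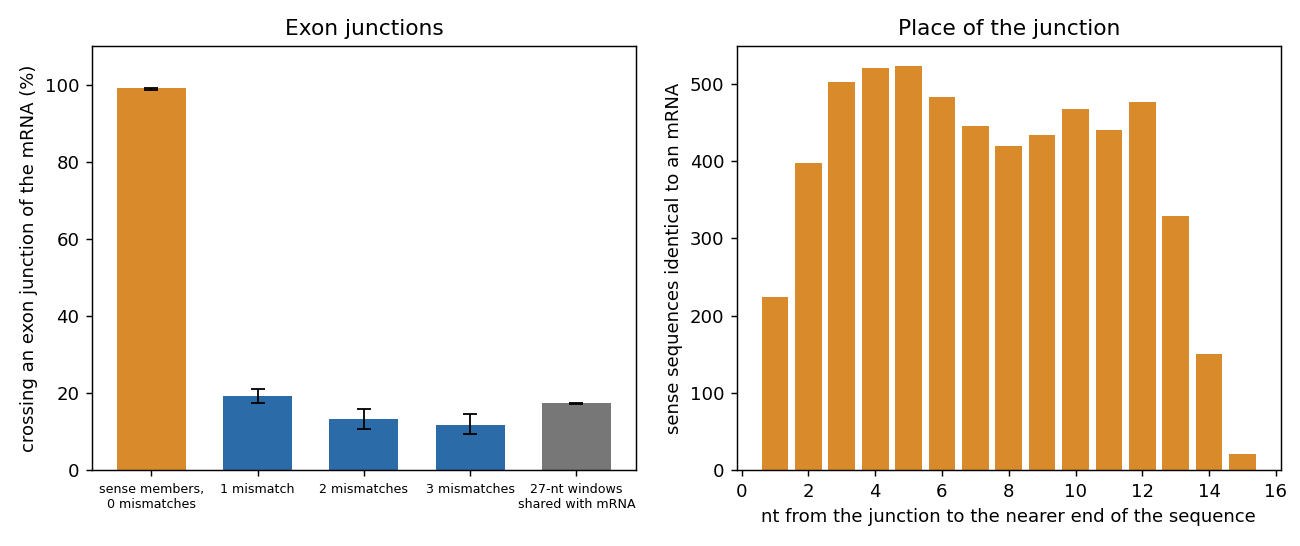
Left, the share of sequences that cross an exon junction of the mRNA, for sense pseudogene sequences with 0 to 3 mismatches to a coding mRNA and for 27-nt windows shared by pseudogene and mRNA, with exact 95% intervals; right, the distance from the junction to the nearer end for the 5831 crossing sequences. The bar of identical sequences stands at 99.0% and the others lie between 11.7% and 19.2%.

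The 5891 identical sequences had the letters of mRNAs of 815 genes and lay in 863 pseudogenes, and in 722 of these pseudogenes every sense sequence was identical to an mRNA. Where a junction was crossed, it lay a median of 7 nt from the nearer end of the sequence, and 1643 of them (28.2%) had 1 to 4 nt on the short side. Sod1, which encodes the superoxide dismutase of the cytosol, had 110 such sequences, mostly at Gm8566, beside 276 listed sequences on its own chromosome. They crossed 3 of the 4 junctions of its 5 exons, 47 between exons 1 and 2, 30 between exons 2 and 3 and 33 between exons 3 and 4. Rpl14, a protein of the large ribosomal subunit, had 96 at pseudogenes and 18 on its own chromosome. Of its 96, 48 crossed from exon 5 to exon 6 and 35 from exon 2 to exon 3. Pfdn6, a subunit of the chaperone prefoldin, had 74 at pseudogenes, 70 of them across the junction of exons 1 and 2, and 164 on its own chromosome.

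Other genes with many junction-crossing sequences were Glrx3, a glutaredoxin, and Impdh2, an enzyme of guanine nucleotide synthesis, with 76 each. Glrx3 had 14 listed sequences on its own chromosome and Impdh2 had 18, so both had more at pseudogenes than at their exons, as had 73 of the 815 genes. A sequence that crosses a junction could not be listed across the intron of its own gene, which limits this comparison. The Impdh2 sequences spread over 12 junctions of 14 exons, the most being 19 between exons 5 and 6. The families split the same way. Of the sense sequences at copies of hnRNP and splicing factor genes, 185 of 208 were identical to an mRNA of another chromosome, and at copies of genes of oxidative phosphorylation 226 of 248. At copies of histone and HMG protein genes 5 of 287 were identical, but 188 of the 287 lay at Gm12260 alone, where none was. At ribosomal protein copies 494 of 1254 were, and 235 of these 1810 pseudogenes had a sense sequence of other letters. In all, 1201 pseudogenes had a sense sequence that no such mRNA shares.

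The sets also differed at the first base. Among sequences of 24 to 32 nt, 56.5% (55.2 to 57.8) of the sense sequences identical to an mRNA began with U, against 68.8% (67.7 to 69.8) of the other sense sequences. Antisense sequences began with U in 69.3% (68.1 to 70.6), and all listed sequences in 68.7%. The identical set thus lay below the others, with intervals that did not overlap, while the other sense sequences and the antisense sequences had intervals that did. These intervals do not allow for sequences of the same transcript. Of the identical set 99.0% crossed an exon junction, so its 5′ ends could lie only near junctions. The share of U at such places was not computed. Over different 5′ ends in place of sequences, the identical set had U at 50.8% of 3804 ends (49.2 to 52.4), the other sense sequences at 65.4% (64.2 to 66.7) and the antisense sequences at 64.0% (62.2 to 65.7). Listed sequences sense to coding exons began with U in 67.7%. At position 10, A made up 34.4% of the sense set and 28.8% of the antisense set. The sense set had nearly as much A beside it, 33.3% at position 9 and 33.9% at position 11. In the antisense set A was at 25.7% at position 9 and 29.4% at position 11, so position 10 lay between its neighbours. Among the antisense sequences without U at position 1, A at position 10 was 30.2% (28.0 to 32.5). The list as a whole had A at position 10 in 32.6%.

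**Figure D3:**
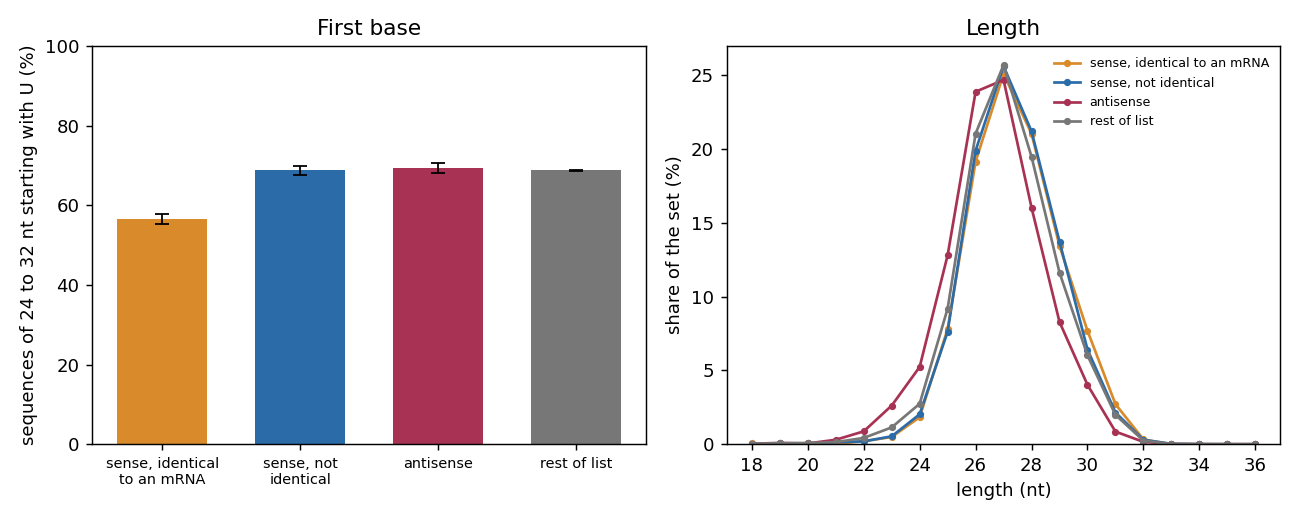
Left, the share of sequences of 24 to 32 nt that begin with U, with exact 95% intervals, for sense sequences identical to an mRNA of another chromosome, other sense sequences, antisense sequences and the rest of the list; right, the length distribution of the same sets. The identical set stands at 56.5% against 68.8% and 69.3%, and the antisense curve lies to the left of the sense curves.

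Antisense sequences were shorter. Their mean length was 26.7 nt with an SD over sequences of 1.73, against 27.4 nt with an SD of 1.63 in the sense set and 27.1 nt in the list. In the list 25.7% of sequences were 27 nt long and 21.1% were 26 nt, both below the stated gel range of 28 to 30 nt. A length of 29 to 32 nt was found in 13.3% of antisense and 23.3% of sense sequences. The listed sequences sense to coding exons had 23.3% in this range, and those that matched no exon had 16%. Several sequences often shared a 5′ end and differed at the 3′ end, with 1.83 sequences per 5′ end in the antisense set and 1.42 in the sense set. The base after the 3′ end was U for 23.3% of the sense sequences not identical to an mRNA, where the transcripts themselves had 23.2% U. For antisense sequences it was 27.6%, where the transcripts had 29.5% U.

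The surroundings of the 2 sets were different. The genome was cut into windows of 20 kb, and the 100 with the most listed sequences held 20.3% of the list. They held 53.2% (51.9 to 54.5) of the antisense sequences and 5.96% (5.44 to 6.52) of the sense sequences not identical to an mRNA. Other listed sequences also differed in this. The windows held 48.9% of those sense to long noncoding RNAs and 40.8% of those that matched no exon. Of those sense to coding exons they held 1.97%. The windows were ranked by all listed sequences, those of the pseudogenes included. A densely covered pseudogene thus raised the rank of its own window, and these shares do not describe the surroundings alone. The antisense share rested on the number of windows taken. The 50 richest held 6.75% of antisense sequences, below the 15.8% of the list, and the 200 richest held 73.2%, above the 25.2% of the list. Without the 10 richest pseudogenes, the 100 richest windows held 10.2% of the antisense sequences, also below the list. Of the 5891 sense sequences identical to an mRNA they held 0, which allows a share of up to 0.0626%. In the 10 kb on each side of the stretch covered by its sequences, an antisense pseudogene with 20 or more had a median of 47.9 listed sequences per kb, and 22 of 31 had over 10. Its own sequences had a median density of 97.2 per kb of annotated exon. In 26 of the 31, over 90% of the surrounding sequences with an inferred strand lay on the strand of the antisense sequences. The 31 were not all separate places. On chromosome 10, Gm47365, Gm47366 and Gm47367 lay together, as did Gm48448, Gm48450, Gm48451 and Gm48454, and also Gm48473, Gm48474 and Gm48475. The surroundings of each included antisense sequences of its neighbours, so these values are not independent of each other.

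Sense pseudogenes with 20 or more sequences were split by their share of sequences identical to an mRNA. Of the 148 sense and 32 antisense pseudogenes, 1 of each had no sequence at its annotated place on mm9 and was left out, which gave 147 and 31. In 71 of them over 50% of the sequences were identical to an mRNA, and their surroundings held a median of 0.15 listed sequences per kb, between 0 and 8, with 62 under 1 per kb. Another 9 had some such sequences, up to 50%, with a median of 1.10 per kb around them and a median of 78.6% U at the first base. A further 67 had no such sequence, and their surroundings held a median of 2.70 per kb, with a range that reached 430 per kb at Gm13815, and 15 of them had over 10 per kb. The share beginning with U had a median of 55.6% in the group of 71 and 70.1% in the group of 67. In 31 antisense pseudogenes it had a median of 72.5%, from 50.3% at Gm9731 to all sequences at Gm15950. A total of 9 antisense and 5 sense pseudogenes had sequences in the 100 richest windows.

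**Figure D4:**
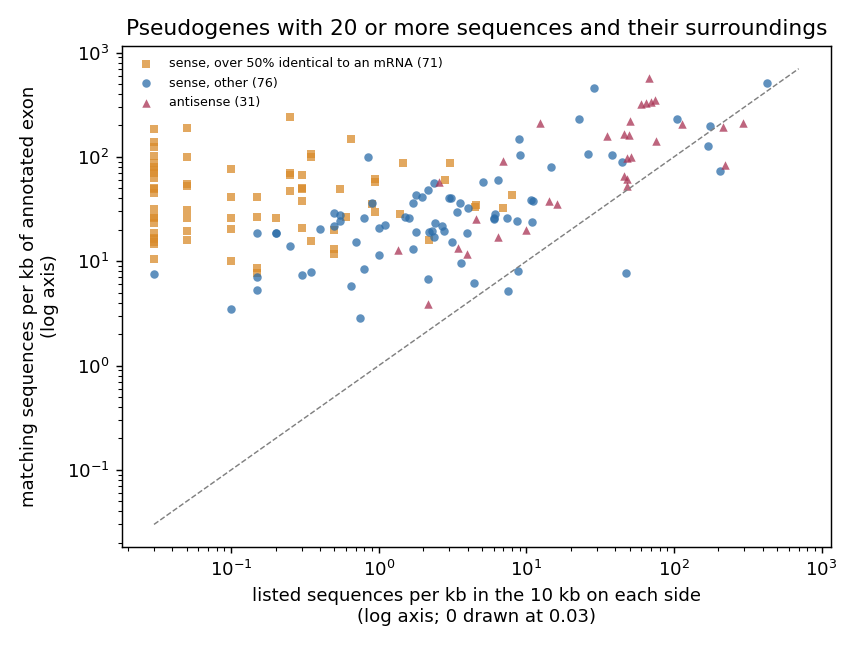
Each point is a pseudogene with 20 or more sequences on 1 strand, placed by the listed sequences per kb in the 10 kb on each side (x) and its matching sequences per kb of annotated exon (y), both on log axes; the dashed line marks equal values. Squares, sense pseudogenes mostly identical to an mRNA, lie at the left with a median of 0.15 per kb around them, and triangles, antisense pseudogenes, lie at the right with a median of 47.9.

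The richest antisense pseudogenes formed a few neighbourhoods, and chromosomes 6 and 10 held 34.7% and 26% of all antisense sequences. Gm18609, a processed pseudogene with no coding parent at the set identity, had 1271 antisense sequences at chr6:128135314-128138879, all on the - strand and all in the 100 richest windows. Of its sequences 66.9% began with U and 27.1% had A at position 10. Its surroundings held 74.1 listed sequences per kb, all of those with an inferred strand on the same strand, and 235 of its sequences also matched the noncoding gene Gm10010 in sense. Gm18009, at chr6:128397131-128398378, had 323 antisense sequences on the + strand, with 60 per kb around it. Gm43959, at chr6:85061688-85062259, had 329, the highest density of the 10 richest with 570.2 per kb of exon. All 329 also matched the noncoding gene Gm5878 in sense.

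On chromosome 10, Gm47366 had 490 antisense sequences at chr10:85227033-85228506, and Gm47365, which overlaps it, had 396 at chr10:85227338-85228506. The 396 are also among the 490, so these counts do not add. Gm47367 followed at chr10:85228677-85230292 with 189, of which 80.9% began with U. These 3 neighbours were covered on the + strand, and between 65.1 and 75.9 listed sequences per kb lay around them, all of those with an inferred strand on that strand. Gm48451, at chr10:86035791-86036978, had 198 antisense sequences on the - strand, none of them in the 100 richest windows. Each of these 4 pseudogenes had 3 or fewer sequences complementary to a coding mRNA with up to 3 mismatches, and Gm48451 had 0.

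The remaining antisense pseudogenes among the 10 richest had a known parent, as had Gm43959, a copy of Gm5890 with 75.6% identity. Gm12904, a copy of the Argonaute gene Ago2 with 90.7% identity over 81.3% of its length, had 306 antisense sequences at chr4:123515355-123516735, inside the gene 1700121C08Rik and on its strand. CT025671.2, at chr17:66576759-66577357, is a copy of Pphln1, which encodes periphilin, with 86.6% identity, and had 160. Its surroundings held 113.9 per kb, and it lay in the 100 richest windows. Gm9731, a copy of the cyclin gene Ccnq with 87.9% identity, had 159 at chr8:28406536-28406986. It differed from the others in its surroundings, with 12.3 listed sequences per kb, and in its first base, with 50.3% U.

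Among sense pseudogenes the richest was Gm16270, transcribed and processed, with 479 sequences at chr10:86372229-86375433 on the + strand. Of these 75.9% began with U, 0 were identical to a coding mRNA, and 87 also matched the noncoding gene Gm16280. Zfp389, a transcribed processed pseudogene named for a zinc finger protein, had 283 at chr13:21596182-21597065, with 62.1% U at the first base and 22.6 listed sequences per kb around it. Gm13815 had 210 at chr2:92401428-92401795. It is a copy of Rps27a, a ubiquitin and ribosomal protein fusion gene, with 91.2% identity, and 153 of its sequences were within 3 mismatches of the Rps27a mRNA, but none was identical to it. All 210 lay in the 100 richest windows, with 430 per kb around them and 99.7% of those on the same strand.

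Other sense pseudogenes departed from the usual first base. Gm12260, an unprocessed copy of a histone H3 gene with 88.3% identity to Hist1h3g, had 188 sequences at chr11:58775320-58775723, of which 20% began with U and 20% had A at position 10. It lies within the gene Trim17 on its strand. For 90 of its sequences the closest coding mRNA found, within 3 mismatches, was that of Hist2h3c2. Gm8566, the copy of Sod1 with 98% identity, had 113 at chr6:67155668-67155899. Of its 111 sequences of 24 to 32 nt, 108 were identical to the Sod1 mRNA and 26.1% began with U. Its 113 sequences had 39 different 5′ ends, and 0.25 listed sequences per kb lay around it. Zfp862-ps had 153 over chr6:48454390-48484738, with 83.7% U. Gm371 on the X chromosome had 129 with 78.3% U and no sequence within 3 mismatches of a coding mRNA.

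Whether antisense sequences could pair with coding mRNAs of any chromosome, their own included, was examined with up to 3 mismatches over their whole length. Of 5388 antisense sequences of 24 to 32 nt, 1079 (20%) were complementary to a coding mRNA, 40 with no mismatch, 428 with 1, 377 with 2 and 234 with 3. Of the sense sequences 3.67% were complementary to an mRNA in the same search, and 1.87% of the antisense sequences matched one on the same strand with up to 3 mismatches. Each sequence was assigned to 1 mRNA, the one with the fewest mismatches, or the first found among equals. Further mRNAs that it could pair with were not counted. So assigned, the 1079 reached 209 mRNA genes, 122 of them by 1 sequence, and the 10 mRNAs with the most took 56.3%. Of the 40 fully complementary sequences, 35 crossed an exon junction of the mRNA (87.5%, interval 73.2 to 95.8), against 10.8% of the 1039 with 1 to 3 mismatches.

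Ago2, the Argonaute protein that can cut RNA, was the mRNA with the most, 118 antisense sequences, mostly from Gm12904, as in the pair printed above. Of these 3 had no mismatch, 62 had 1, 46 had 2 and 7 had 3. The list also held 1648 sequences sense to Ago2 exons. Ago1, a relative of Ago2, was the assigned mRNA of 29 antisense sequences, none with fewer than 2 mismatches. Sequences assigned to Ago2 that could also pair with Ago1 are not among them. Spin1, a reader of modified histones, was reached by 101 sequences, most of them from its copy Gm7787, of which 63 had 1 mismatch, and Gm7787 lies at chr9:67595884-67596525 with 215 listed sequences per kb around it. Pphln1, a part of a complex that silences chromatin, was reached by 91, of which 4 had no mismatch. Ccnq had 57, with 32 at 3 mismatches.

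Further mRNAs were reached by fewer. Stambp, a deubiquitinating enzyme, had 54 from Gm18009, and Plk1, a kinase of mitosis, had 45 mostly from Plk-ps1, 1 of them with no mismatch. Gm5114 had 51 and Gm5890 had 37, and for both the list held 0 sequences sense to their exons. Coro1c, an actin-binding coronin, had 19, of which 14 had 1 mismatch. Among these mRNAs the number of listed sense sequences ran from 0 to 1648. Ccnq, with 57 complementary sequences, had 18 listed sense sequences, and Plk1, with 45, had 21, while Ago2, with 118, had 1648 and Pphln1, with 91, had 284.

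**Figure D5:**
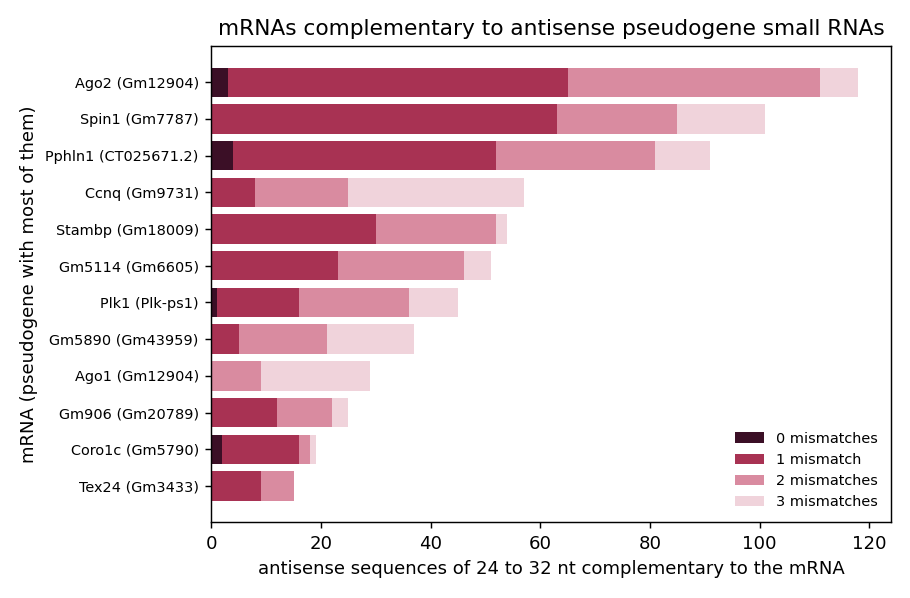
Each bar gives the complementary antisense sequences of 24 to 32 nt assigned to 1 mRNA, shaded by their number of mismatches (up to 3). Each sequence is counted at its closest mRNA only. The 12 mRNAs with the most are shown, with the pseudogene that held most of the sequences in parentheses. Ago2 leads with 118, Spin1 has 101 and Pphln1 has 91, and most have 1 or 2 mismatches.

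The overlap of 5′ ends was counted between these antisense sequences and the listed sequences sense to the same mRNA. At an overlap of 10 nt there were 129 pairs, against a mean of 61.2 with an SD of 23.8 over the other overlaps from 1 to 20 nt. The next highest overlap had 111 pairs, so the count at 10 nt was the highest of the range but close to the next. Taking every 5′ end only once gave 36 pairs at 10 nt, against 20.8 with an SD of 4.55 and a highest other value of 31. Pphln1 alone gave 64 of the 129, with 62 at its next highest overlap. Without Pphln1 there were 65 pairs at 10 nt, against a mean of 34.8 with an SD of 8.99 and a highest other value of 52. Ago2 gave 24, with 20 at its next highest overlap, and Spin1 gave 16, where another overlap had 17. In all 13 mRNA genes had a pair at 10 nt. Pairs share sequences, so these SDs over overlaps are descriptions, and no test was made.

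Within the pseudogenes themselves, opposite strands gave few pairs. Sense and antisense sequences of the same pseudogene transcript overlapped by 10 nt in 8 pairs, against a mean of 4.32 with an SD of 1.92 over the other overlaps and a highest other value of 8. Taking every 5′ end only once gave 4 pairs at 10 nt and up to 6 at another overlap. The 10-nt count thus equalled the highest of the other overlaps when all pairs were counted, and was below it when 5′ ends were. Of 366 pseudogenes with antisense sequences, 145 had any sense sequence to pair with.

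The annotated places were checked before use. GENCODE vM21 is built on GRCm38 and the list on mm9, so matches were made by sequence, and 99.3% of the pseudogene sequences lay where the neighbouring genes put the pseudogene on mm9. The strand was inferred for 82.5% of them from overlapping listed sequences, and for 99.6% of these it was the strand of the match. Antisense sequences more often lay inside another gene on their own strand, 22.9% against 11% of sense sequences, and 11.2% of them also matched another noncoding gene in sense, as 0.914% of sense sequences did. For those sequences the other gene's transcript and an antisense transcript of the pseudogene cannot be told apart.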

How the data were processed

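Small RNAs bound to Tdrd1 or Mili in mouse testes were sequenced by the authors, who deposited 1 list of distinct sequences with chromosome and range (mm9, per the submitters' processing notes). The aligner and its mismatch and multiple-mapping settings were not given in the sources used here. Every sequence was searched with an 18-nt seed for exact whole-length matches on both strands of GENCODE vM21 transcripts. The search was tested on simulated data and against a plain string search. Parent genes came from BLASTN 2.17.0 (word size 16, E-value 1e-05). Coding mRNAs were searched with up to 3 mismatches for sequences of 24 to 32 nt. Places on the GRCm38 annotation were compared with mm9 through neighbouring genes, and no coordinate was converted. The stretches given for a pseudogene run from its first to its last matching sequence on mm9. Intervals are exact Clopper-Pearson, 95%. The 10 richest pseudogenes of each strand were named, and the 12 mRNAs shown were those with the most complementary sequences. Members and gene lists were chosen with earlier results of these data known. Samples could not be compared, as the list has no library column, and with 1 library per group there is no replicate error. Python 3.11.15, numpy 2.4.6, pandas 2.3.3 and scipy 1.17.1 were used.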

Additional observations from a re-analysis of the deposited data

How the results depend on the processing

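Of 131 values under other settings, 88 stayed within their tolerance and 43 moved. Leaving out sequences that match a transcript of another chromosome left 7656 sense sequences in 1198 pseudogenes, with 68.8% U first, 5.98% in the richest windows and 25.1% in the 10 richest pseudogenes. Leaving out those identical to an mRNA of another chromosome, an alternative added after seeing the data, gave 7681, 1201, 68.8%, 5.96% and 25.0%. Counting each 5′ end once gave 59.6% U, 2.40% in the richest windows and 11.3% in the 10 richest for sense, and 3075 sequences, 64.0%, 43.9% and 50.5% for antisense, and 4 sense-antisense pairs at 10 nt. Without the 10 richest pseudogenes, 2187 antisense sequences remained, with 74.7% U, 30.4% A at position 10, 10.2% in the richest windows (below the 20.3% of the list) and 47.2% in the next 10, and the sense values were 2.13% and 8.25%. Without the richest pseudogene, the 10 richest held 11.9% of sense and 52.9% of antisense, and the richest windows 39.5% of antisense. Without transcribed, translated and polymorphic pseudogenes, sense had 61.1% U, 4.54% and 11.9%, and antisense 54.7% and 62.8%. Without the exclusion of coding sense matches, the 10 richest held 13.6% of sense and 57.7% of antisense, and the richest windows 50.3% of antisense. Without antisense sequences sense to another noncoding gene, the richest windows held 48.6%. With 50 or 200 richest windows in place of 100, they held 6.75% or 73.2% of antisense (15.8% or 25.2% of the list) and 1.97% or 4.08% of sense. With 0 mismatches, 40 antisense sequences were complementary to an mRNA. Flanks of 20 kb, also added after seeing the data, gave a median of 28.3 per kb around antisense pseudogenes. The cause of these shifts was not tested. No paired analysis was possible because each group had 1 library and the list does not name the library. Depth is unknown, so a pseudogene with no listed sequence cannot be called free of small RNAs.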
